A study of Mus musculus with 4 samples.

Results

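The replication-dependent histone genes encode the linker histone H1 and the core histones H2A, H2B, H3 and H4 that package newly made DNA. They were taken as the rows of the deposited tables whose symbol begins with Hist1h, Hist2h, Hist3h or Hist4h, which gave 67 of 23312 genes: 6 for H1, 18 for H2A, 18 for H2B, 12 for H3 and 13 for H4. RNA was sequenced from B220+CD43+ cells sorted from bone marrow and labelled pro-B cells, early B-lineage cells that rearrange the heavy chain locus. Libraries labelled Cnot3 fl/fl carried loxP-flanked alleles of Cnot3, a subunit of the CCR4-NOT complex that shortens poly(A) tails, and libraries labelled Cnot3 +/+ carried wild-type alleles. Mice of both genotypes were C57BL/6, carried the tamoxifen-inducible RERTCre and received 1 mg tamoxifen on days 1, 2, 4 and 7 before analysis on day 10. Each genotype had 2 libraries, described as individual mice. The sources used here do not state the animals' age.

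Most histone mRNAs of this family carry no poly(A) tail. They end in a short stem-loop that is held by the stem-loop binding protein SLBP and cut by a complex containing the U7 small nuclear RNP, and they accumulate while DNA is replicated. The libraries were made with a kit for mRNA that captures polyadenylated RNA, so a value here reports tailed transcripts, or traces of untailed ones, and not the cell's whole histone mRNA. Some family members can also be read past the stem-loop and be polyadenylated further downstream.

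Expression was deposited as FPKM, fragments per transcript length and library size, without counts, and the depth of each library was unknown. A library had 14684 to 15126 of the 23312 genes above 0. The targeted gene did not separate the genotypes over its whole length, with Cnot3 at 39.0 and 40.3 FPKM in Cnot3 fl/fl libraries, against 41.6 and 39.3 FPKM in Cnot3 +/+ libraries (log2 fold change -0.03, limma adjusted p = 0.83). Because the position of the loxP sites is not stated, this level does not check the genotype labels. Cnot3 +/+ replicate 1 stood apart in sex-linked transcripts. It had 0.0242 FPKM of Xist, against 62.7 and 54.3 FPKM in Cnot3 fl/fl libraries and 63.1 FPKM in Cnot3 +/+ replicate 2, and 16.0 FPKM of the Y-linked gene Ddx3y, against under 0.01 FPKM in the other 3 libraries. Of 11 B-lineage markers, 5 were called lower in Cnot3 fl/fl (limma adjusted p under 0.05), beside 3.28% of all 11017 genes tested, and all 11 summed to 818.7 and 799.5 FPKM in Cnot3 fl/fl libraries and 995.5 and 1299.8 FPKM in Cnot3 +/+ libraries. Vpreb1, which encodes a surrogate light chain of pro-B cells, had 9.89 and 7.21 FPKM in Cnot3 fl/fl libraries, against 65.3 and 131.9 FPKM in Cnot3 +/+ libraries. That was the largest difference of the 11 (log2 fold change -3.31). Of the 11, 9 had a negative log2 fold change, a small one for Cd79b (-0.27) and Il7r (-0.18). Those of Dntt and Blnk were positive (0.20 and 0.05). Markers of plasmacytoid dendritic cells, which also carry B220, were more abundant than the B-lineage ones in every library. The 8 markers summed to 8208.5 and 9713.6 FPKM in Cnot3 fl/fl libraries and to 10389 and 9960.7 FPKM in Cnot3 +/+ libraries, although Bst2, Tcf4, Ly6d and Irf8 among them are also transcribed in B-lineage cells. Siglech, a receptor gene that defines those dendritic cells, reached 1114.5 and 1330.9 FPKM in Cnot3 fl/fl libraries and 1455.9 and 1370.4 FPKM in Cnot3 +/+ libraries, so the sorted cells are called B220+CD43+ cells here.

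The stem-loops of members that the results turn on are shown here. These windows do not show where a transcript ends. Each line gives the 16-base stem-loop in capitals, with up to 5 flanking bases in lower case, 5′ to 3′, as read from the longest protein-coding GENCODE M21 transcript (GRCm38).
Hist1h1c: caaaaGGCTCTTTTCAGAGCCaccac
Hist3h2a: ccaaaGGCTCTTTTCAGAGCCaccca
Hist3h2ba: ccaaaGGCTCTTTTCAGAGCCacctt
Hist1h2bg: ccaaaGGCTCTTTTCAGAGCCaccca
Hist1h2bb: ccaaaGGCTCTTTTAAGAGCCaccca
Hist2h2ac: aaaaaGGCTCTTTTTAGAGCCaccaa
Hist1h4i: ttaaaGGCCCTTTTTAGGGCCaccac
Hist1h4d: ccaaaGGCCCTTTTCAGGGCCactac
Hist1h4c: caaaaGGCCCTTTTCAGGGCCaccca
Hist2h4: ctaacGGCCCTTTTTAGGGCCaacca
In GRCm38 the capitals lie at chr13:23739512-23739527 for Hist1h1c, chr11:58955172-58955187 for Hist3h2a, chr11:58949349-58949364 for Hist3h2ba and chr13:23571843-23571858 for Hist1h2bg, all on the plus strand. Those of Hist1h2bb and Hist1h4d are at chr13:23747203-23747218 and chr13:23581950-23581965, also on the plus strand. On the minus strand are those of Hist2h2ac (chr3:96220418-96220433), Hist1h4i (chr13:22040966-22040981), Hist1h4c (chr13:23698089-23698104) and Hist2h4 (chr3:96262939-96262954).

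All 67 members had a GENCODE transcript. The stem-loop was searched on the transcript strand only, as GGC, any base, CTTTT, any base, AG, any base and GCC, and stood in 41 of them and in 0.201% of the 21877 protein-coding genes searched (members included). Among the 41, 25 members had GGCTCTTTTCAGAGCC and 7 had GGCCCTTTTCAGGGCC, the form with C-G pairs in the stem found in H4 genes. The site lay 21 to 58 bases after the stop codon, with a median of 31. Of the 26 members without these letters, 16 had a transcript annotated for under 40 bases past the stop codon. The others included Hist2h2be and Hist1h2bc.

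A minority of the family was well represented in these libraries. Of 67 genes, 57 (85.1%) had a value above 0 in at least 1 library, 34 (50.7%) had one in all 4, and 10 were listed at 0 throughout. Over all 23312 genes the corresponding shares were 69.9% in at least 1 library and 59.3% in all 4. Values above 0 were found for 42 and 44 members in the Cnot3 fl/fl libraries and for 45 and 55 members in Cnot3 +/+ replicates 1 and 2. The median value over the 67 genes was 0.194 and 0.202 FPKM in Cnot3 fl/fl libraries, against 0.279 and 0.752 FPKM in Cnot3 +/+ libraries.

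In all, 27 members (40.3%) reached 1 FPKM in at least 1 library, against 49.2% of all genes. Of these, 11 did so in a library of each genotype, 16 in Cnot3 +/+ libraries alone and 0 in Cnot3 fl/fl libraries alone. At least 1 FPKM was found for 8 and 11 members in the Cnot3 fl/fl libraries and for 15 and 27 members in Cnot3 +/+ replicates 1 and 2. Every one of the 27 was therefore above this level in Cnot3 +/+ replicate 2, and 12 of them only there. Without that library 15 members reached it. The share of all genes at 1 FPKM or more was 47.2% and 46.8% in Cnot3 fl/fl libraries and 46.5% and 46.9% in Cnot3 +/+ libraries. The member nearest above the level was Hist1h1e, with a maximum of 1.02 FPKM, and the nearest below was Hist1h2ae, with 0.956 FPKM.

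**Figure D1:**
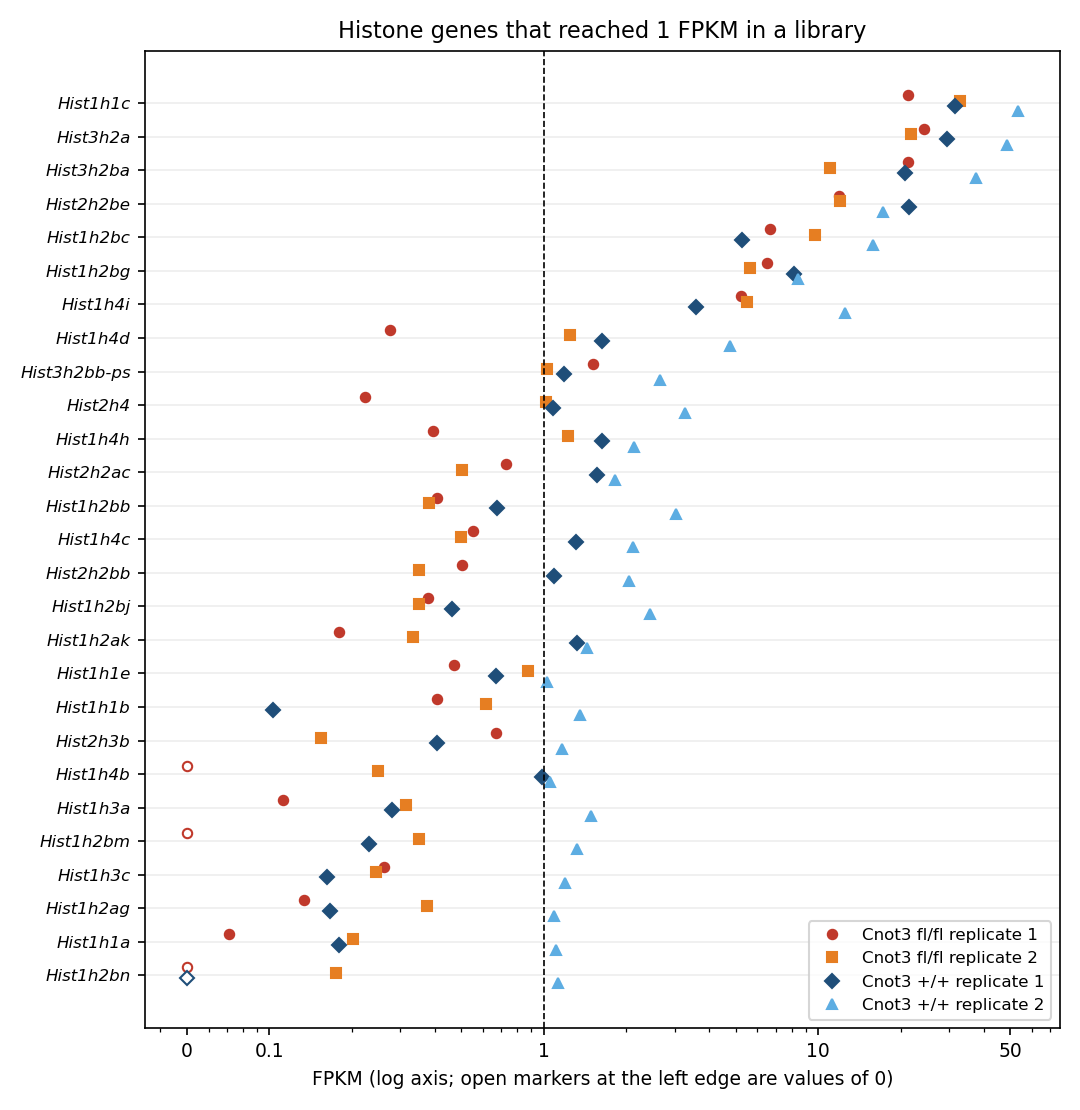
FPKM on a log axis for the 27 histone genes that reached 1 FPKM (dashed line) in a library, with 1 marker per library and open markers for values of 0; genes run from the highest mean at the top. Cnot3 +/+ replicate 2 lies to the right of the line in all 27, whereas 8 and 11 genes do so in the Cnot3 fl/fl libraries.

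Only 7 members averaged at least 5 FPKM over the 4 libraries, and they held 88.3% and 86.9% of the family's summed FPKM in Cnot3 fl/fl libraries and 84.2% and 78.9% in Cnot3 +/+ libraries. They were Hist1h1c (linker histone H1), Hist3h2a (H2A), Hist3h2ba, Hist2h2be, Hist1h2bc and Hist1h2bg (H2B) and Hist1h4i (H4). No H3 gene was among them, and the highest H3 value was 1.49 FPKM, for Hist1h3a in Cnot3 +/+ replicate 2. The median length of their longest GENCODE transcript was 1156 bases, against 522 bases for the other 60 members. A poly(A) signal, AATAAA or its variant ATTAAA, lay in the last 50 bases of the transcript in 5 of the 7 and in 11 of the other 60. In each of the 5 with the stem-loop letters the annotation continued 155 to 1643 bases past the stem-loop. It did so for over 100 bases in 16 of the 36 other members with the letters, among them Hist1h4d with 770, Hist2h4 with 1257 and Hist1h1e with 1153 bases. These ends are those of the GENCODE models and not of the gene models behind the FPKM values, which were not checked. In the authors' files the locus of Hist1h4d spans 312 bases and that of Hist2h4 348 bases, so their long 3′ ends lay outside what was measured. The locus of Hist1h1e is merged with that of Hist1h2be. That of Hist1h4i, an abundant member, spans 537 bases, against 727 bases of its GENCODE transcript. Low members with long loci also had long ends. Hist4h4 had 2445 bases past the stem-loop, a locus of 2879 bases and at most 0.511 FPKM. Hist2h3c1 had 1167 bases past it, a locus of 1825 bases and at most 0.823 FPKM. Both had a poly(A) signal near the end. Whether the 3′ end bears on the level was not tested.

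**Figure D2:**
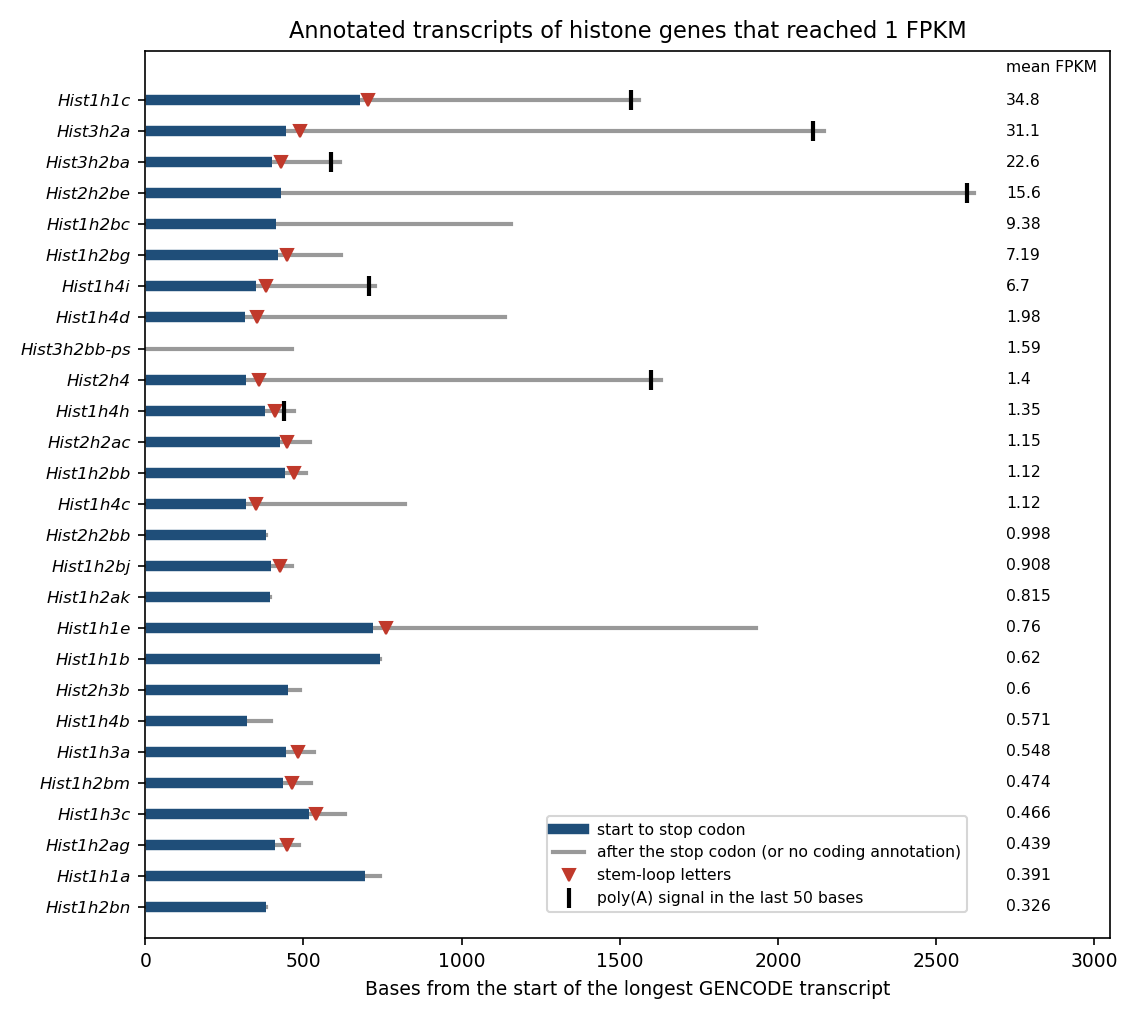
Longest GENCODE M21 transcript of each histone gene that reached 1 FPKM, drawn in bases from its start, with the stretch to the stop codon in blue, the stem-loop letters as a triangle and a poly(A) signal in the last 50 bases as a bar; the mean FPKM over the 4 libraries is printed at the right. Hist1h1c, Hist3h2a and Hist1h4i have a stem-loop well before a poly(A) signal at the end, whereas Hist1h2bb and Hist2h2ac end 23 and 57 bases after the stem-loop. The low gene Hist2h4 also continues for 1257 bases and has a signal, and the abundant Hist1h2bg and Hist1h2bc have none.

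Of the 7 abundant members, the clearest difference was in Hist2h2be, an H2B gene of the Hist2 cluster. Hist2h2be stood at 11.9 and 12.0 FPKM in Cnot3 fl/fl libraries, against 21.5 and 17.2 FPKM in Cnot3 +/+ libraries. Both Cnot3 fl/fl values were below both Cnot3 +/+ values, and the spread within a genotype was smaller than the gap between them. It fell by 0.64 on the log2(FPKM + 1) scale (standard error 0.13), with means of 12.0 ± 0.103 FPKM in Cnot3 fl/fl libraries and 19.3 ± 3.03 FPKM in Cnot3 +/+ libraries (SD, n = 2 each), and was the only member past the threshold (limma, Benjamini-Hochberg adjusted p = 0.049 over 11017 genes). This call lay at the threshold. Its adjusted p was between 0.043 and 0.24 over 11 alternatives and passed in 3 of them. It was lost with a pseudocount of 5 FPKM, without the filter on low values, without the variance trend, with a replicate block (adjusted p = 0.054) and without any library, Cnot3 +/+ replicate 1 included (log2 fold change -0.49, adjusted p = 0.10). In the authors' deposited table Hist2h2be had a q-value of 0.0364. The files place it at mm9 chromosome 3 from 96025043 to 96027661, and the sources used here do not state whether that start counts from 0 or 1. None of its 50-base words occurred in another member's transcript.

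Hist3h2a, an H2A gene of the Hist3 cluster, stood at 24.3 and 21.8 FPKM in Cnot3 fl/fl libraries, against 29.4 and 48.9 FPKM in Cnot3 +/+ libraries. The genotypes did not overlap, but the Cnot3 +/+ libraries differed from each other by more than the gap between the genotypes. Its log2 fold change was -0.70 ± 0.25 (standard error), which did not pass (limma adjusted p = 0.13). It had in the authors' deposited table a q-value of 0.0114, the lowest in the family. Hist3h2ba, its H2B neighbour, stood at 21.2 and 11.0 FPKM in Cnot3 fl/fl libraries, against 20.6 and 37.4 FPKM in Cnot3 +/+ libraries. Cnot3 fl/fl replicate 1 exceeded Cnot3 +/+ replicate 1, so the groups overlapped (log2 fold change -0.82, standard error 0.40, adjusted p = 0.23). Hist1h2bg, an H2B gene, had 6.52 and 5.62 FPKM in Cnot3 fl/fl libraries, against 8.18 and 8.43 FPKM in Cnot3 +/+ libraries. These values did not overlap and the log2 fold change was -0.40 with a standard error of 0.11, without passing (adjusted p = 0.086).

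The other abundant members overlapped between the genotypes. Hist1h1c, an H1 gene with the highest mean of the family, stood at 21.2 and 32.9 FPKM in Cnot3 fl/fl libraries, against 31.5 and 53.5 FPKM in Cnot3 +/+ libraries (log2 fold change -0.62, adjusted p = 0.25). Hist1h2bc, an H2B gene, measured 6.69 and 9.73 FPKM in Cnot3 fl/fl libraries, against 5.28 and 15.8 FPKM in Cnot3 +/+ libraries (log2 fold change -0.18, adjusted p = 0.83). Hist1h4i, an H4 gene, stood at 5.21 and 5.51 FPKM in Cnot3 fl/fl libraries, against 3.60 and 12.5 FPKM in Cnot3 +/+ libraries (log2 fold change -0.31, adjusted p = 0.71). For Hist1h2bc and Hist1h4i the Cnot3 +/+ libraries were the lowest and the highest of the 4. Without Cnot3 +/+ replicate 2 their log2 fold changes were 0.53 and 0.47 instead.

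The other 7 members with a mean of at least 1 FPKM were low, and 6 of them averaged under 1 FPKM in Cnot3 fl/fl libraries. Those 6 passed the filter through the Cnot3 +/+ libraries, so a lower value in Cnot3 fl/fl libraries was built into their selection. Hist1h4d had 0.275 and 1.25 FPKM in Cnot3 fl/fl libraries, against 1.64 and 4.75 FPKM in Cnot3 +/+ libraries (log2 fold change -1.20, adjusted p = 0.16). Hist2h4 had 0.223 and 1.02 FPKM in Cnot3 fl/fl libraries, against 1.08 and 3.27 FPKM in Cnot3 +/+ libraries (log2 fold change -0.92, adjusted p = 0.22). Hist1h4h had 0.395 and 1.23 FPKM in Cnot3 fl/fl libraries, against 1.63 and 2.14 FPKM in Cnot3 +/+ libraries (log2 fold change -0.70, adjusted p = 0.16). In these 3 H4 genes Cnot3 fl/fl replicate 1 was the lowest library and the genotypes did not overlap. Hist1h4c, another H4 gene, had 0.550 and 0.498 FPKM in Cnot3 fl/fl libraries, against 1.31 and 2.11 FPKM in Cnot3 +/+ libraries (log2 fold change -0.81, adjusted p = 0.077). Hist2h2ac, an H2A gene, had 0.728 and 0.504 FPKM in Cnot3 fl/fl libraries, against 1.56 and 1.81 FPKM in Cnot3 +/+ libraries (log2 fold change -0.73, adjusted p = 0.067). Both were separated by genotype, with every Cnot3 fl/fl value under 1 FPKM. Hist1h2bb, an H2B gene, had 0.407 and 0.380 FPKM in Cnot3 fl/fl libraries, against 0.673 and 3.03 FPKM in Cnot3 +/+ libraries (log2 fold change -0.90, adjusted p = 0.23). Hist3h2bb-ps, annotated as a pseudogene, had 1.51 and 1.02 FPKM in Cnot3 fl/fl libraries, against 1.19 and 2.64 FPKM in Cnot3 +/+ libraries (log2 fold change -0.32, adjusted p = 0.49). Cnot3 +/+ replicate 2 was well above the other 3 libraries in both.

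Among the 14 tested members 1 call was made, lower in Cnot3 fl/fl, and none higher (limma), beside 9.49% of all 11017 genes tested that were called, 3.28% lower and 6.22% higher. At an unadjusted p under 0.05, 5 were lower and 0 higher, beside 15.3% and 18.5% of all genes. All 14 log2 fold changes were negative, between -1.20 and -0.18, with a median of -0.70, beside 51.0% negative and a median of -0.01 over all genes tested. The genotypes did not overlap in 9 of the 14, always with Cnot3 fl/fl lower, beside 31.7% of all genes separated in that direction and 32.7% in the other. The 9 comprised all 6 members that passed the filter through their Cnot3 +/+ level and 3 of the other 8, Hist1h2bg, Hist2h2be and Hist3h2a, a share near that of all genes. The 14 negative values and their median also include those 6, so nothing is read from these counts about the family. For 1 gene in 4 libraries the smallest exact permutation p (two-sided) is 0.333. The authors' deposited table tested 34 members and marked 2 as significant, Hist3h2a and Hist2h2be, both lower in Cnot3 fl/fl, beside 2.51% of its 12154 tested genes lower and 4.08% higher. In bulk samples fewer cells of a type and less RNA per cell cannot be told apart.

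**Figure D3:**
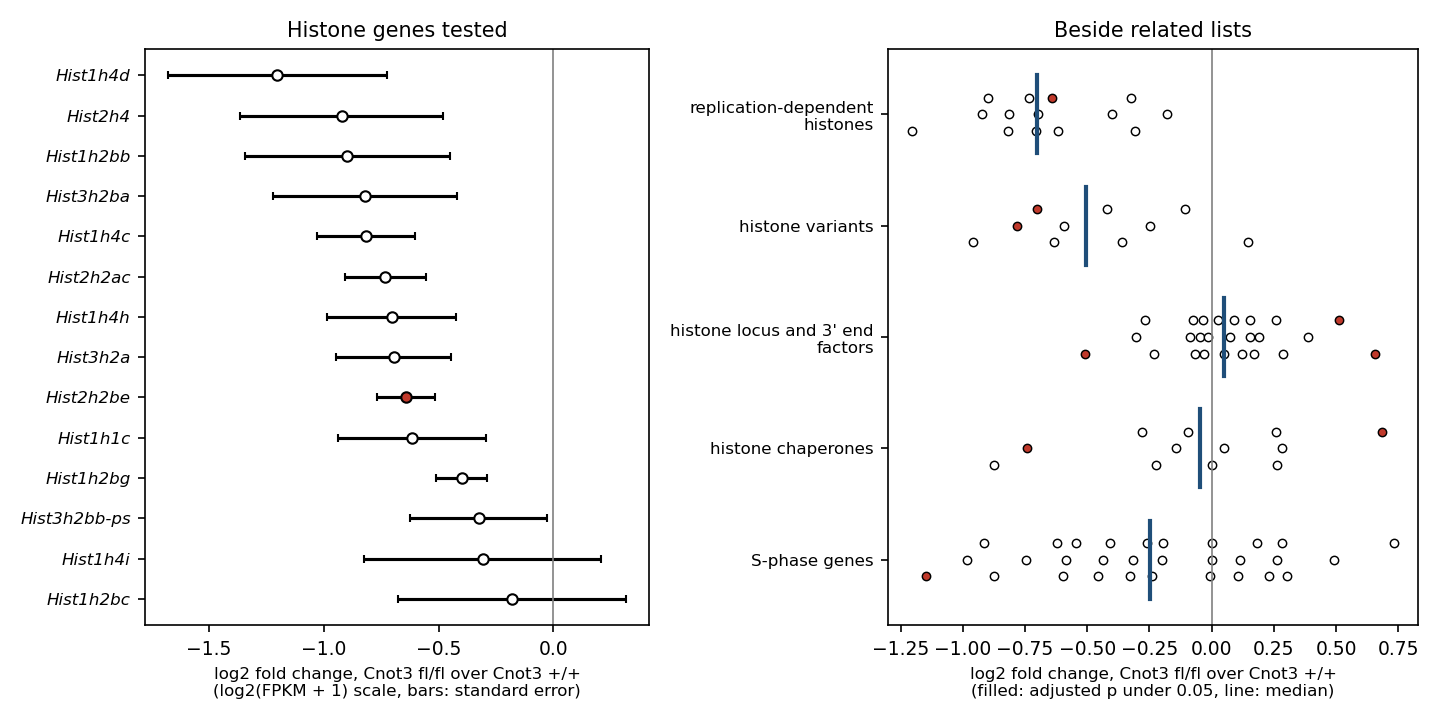
Log2 fold change of Cnot3 fl/fl over Cnot3 +/+ libraries (log2(FPKM + 1) scale), at the left for each of the 14 tested histone genes with its standard error and at the right for the genes of 5 lists with their medians as lines; filled points have a limma adjusted p under 0.05. Hist2h2be is the filled point among the histone genes, and all 14 lie below 0.

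The other 13 members that reached 1 FPKM had means under that level and were not tested. Hist1h2bj, an H2B gene, had 0.379 and 0.349 FPKM in Cnot3 fl/fl libraries, against 0.462 and 2.44 FPKM in Cnot3 +/+ libraries. Hist2h2bb, also H2B, measured 0.502 and 0.352 FPKM in Cnot3 fl/fl libraries, against 1.09 and 2.05 FPKM in Cnot3 +/+ libraries. Hist1h2ak, an H2A gene, stood at 0.180 and 0.332 FPKM in Cnot3 fl/fl libraries, against 1.32 and 1.43 FPKM in Cnot3 +/+ libraries. None of these 3 genes overlapped between the genotypes, and Hist1h2bj was above 1 FPKM in Cnot3 +/+ replicate 2 alone. All 3 reached 1 FPKM in Cnot3 +/+ libraries only, so higher values there were favoured by their selection. Nothing is read from their separation. The remaining 10, Hist1h1a, Hist1h1b, Hist1h1e, Hist1h2ag, Hist1h2bm, Hist1h2bn, Hist1h3a, Hist1h3c, Hist1h4b and Hist2h3b, peaked in Cnot3 +/+ replicate 2 between 1.02 and 1.49 FPKM and were below 1 FPKM in the other 3 libraries. Among them Hist1h1b, an H1 gene, had 0.408 and 0.616 FPKM in Cnot3 fl/fl libraries, against 0.103 and 1.35 FPKM in Cnot3 +/+ libraries.

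The remaining 40 members stayed below 1 FPKM, 30 of them with a value above 0 and a median maximum of 0.528 FPKM. The testis histone genes gave almost no signal. Hist1h2aa was listed at 0, Hist1h1t had 0.0581 FPKM in Cnot3 +/+ replicate 2 alone and Hist1h2ba had 0.172 FPKM in Cnot3 fl/fl replicate 2 alone. Besides Hist1h2aa, the members listed at 0 in every library were Hist1h2ad, Hist1h2af, Hist1h2ah, Hist1h2ao, Hist1h2ap, Hist1h2br, Hist1h3b, Hist1h4n and Hist2h2aa1. Near-identical copies were common among these. On median, 82.6% of the 50-base words of these 10 transcripts also occurred in another member, against 30.0% for the 27 members that reached 1 FPKM. In addition, 8 members shared a locus entry with another member in the files, namely Hist1h1e with Hist1h2be, Hist1h2ao with Hist1h2ap, Hist1h4m with Hist1h4n and Hist2h2aa1 with Hist2h2aa2. The sources used here do not state how reads that match several copies were assigned, so a listed 0 does not show that the gene was silent.

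The precision of the low values can be read from 7 H4 genes, each with a locus of 312 bases in the files and thus the same value per fragment. Within a library every value of Hist1h4a, Hist1h4b, Hist1h4c, Hist1h4d, Hist1h4f, Hist1h4j and Hist1h4k was a whole multiple of the smallest one within 0.1%. The step was 0.275 and 0.249 FPKM in Cnot3 fl/fl libraries and 0.327 and 0.264 FPKM in Cnot3 +/+ libraries. If a step is 1 fragment, Hist1h4d rested on 1 and 5 fragments in Cnot3 fl/fl libraries, against 5 and 18 in Cnot3 +/+ libraries. The exact Poisson 95% interval is 0.0253 to 5.57 for 1 fragment, 1.62 to 11.7 for 5 and 10.7 to 28.4 for 18. For this gene the intervals of Cnot3 fl/fl replicate 2 and Cnot3 +/+ replicate 1 were therefore the same in fragments. In FPKM these 5 fragments stood for 1.25 in the first library and 1.64 in the second. The 7 genes together summed to 9 and 11 steps in Cnot3 fl/fl libraries and to 15 and 38 steps in Cnot3 +/+ libraries, with intervals of 4.12 to 17.1, 5.49 to 19.7, 8.40 to 24.7 and 26.9 to 52.2. The intervals cover counting error only and treat fragments as independent molecules, which PCR copies are not. Steps and their sums are not scaled for the step size, which differs between libraries. On the same assumption a value under 1 FPKM in such a gene corresponds to 4 fragments or fewer, and a difference between such values was not detectable at this depth.

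**Figure D4:**
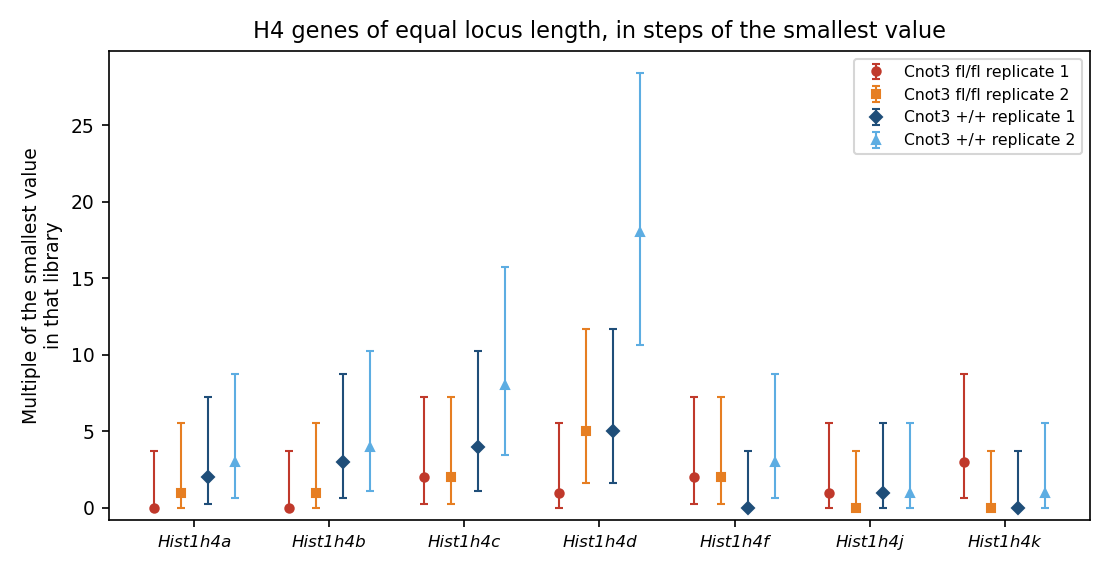
Values of 7 H4 genes of equal locus length as multiples of the smallest value in the same library, with exact Poisson 95% intervals and 1 marker per library. Hist1h4d reaches 18 steps in Cnot3 +/+ replicate 2, against 1 and 5 in the Cnot3 fl/fl libraries, and in the other 6 genes the intervals of the libraries overlap.

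Summed by class, the family was lower in Cnot3 fl/fl libraries, and the sums also differed between the Cnot3 +/+ libraries. All 67 genes summed to 109.9 and 113.5 FPKM in Cnot3 fl/fl libraries, against 142.5 and 245.5 FPKM in Cnot3 +/+ libraries. Cnot3 fl/fl libraries thus had 0.576 times the Cnot3 +/+ mean, while Cnot3 +/+ replicate 2 had 1.72 times the sum of replicate 1. The H2B genes summed to 50.2 and 41.6 FPKM in Cnot3 fl/fl libraries, against 60.9 and 95.1 FPKM in Cnot3 +/+ libraries. The H2A genes summed to 26.9 and 24.5 FPKM in Cnot3 fl/fl libraries, against 34.2 and 56.3 FPKM in Cnot3 +/+ libraries. The core histone sums did not overlap between the genotypes, but in each the gap nearest between them was smaller than the gap between the Cnot3 +/+ libraries. The H4 genes summed to 8.56 and 10.6 FPKM in Cnot3 fl/fl libraries, against 11.7 and 29.1 FPKM in Cnot3 +/+ libraries. The H3 genes gave only 1.79 and 1.78 FPKM in Cnot3 fl/fl libraries, against 2.88 and 7.39 FPKM in Cnot3 +/+ libraries. The H1 sums overlapped, with 22.5 and 35.0 FPKM in Cnot3 fl/fl libraries, against 32.9 and 57.7 FPKM in Cnot3 +/+ libraries.

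The cluster sums differed in how far replicates agreed. The 10 genes of the Hist2 cluster, on chromosome 3, summed to 15.1 and 14.9 FPKM in Cnot3 fl/fl libraries, against 27.3 and 27.5 FPKM in Cnot3 +/+ libraries. Here the Cnot3 +/+ libraries were 1.01 times each other and the Cnot3 fl/fl mean was 0.548 times theirs. This sum is mostly Hist2h2be, which had 21.5 FPKM in Cnot3 +/+ replicate 1 and 17.2 FPKM in replicate 2. Most of the other Hist2 genes were higher in replicate 2 than in replicate 1. The near-equal sums thus came from opposite differences and do not show that the single genes agreed. The 53 genes of the Hist1 cluster, on chromosome 13, summed to 47.6 and 64.6 FPKM in Cnot3 fl/fl libraries, against 63.5 and 128.9 FPKM in Cnot3 +/+ libraries, and overlapped. The 3 genes of the Hist3 cluster, on chromosome 11, summed to 47.0 and 33.8 FPKM in Cnot3 fl/fl libraries, against 51.2 and 88.9 FPKM in Cnot3 +/+ libraries. Hist4h4, alone on chromosome 6, had 0.261 and 0.132 FPKM in Cnot3 fl/fl libraries and 0.511 and 0.277 FPKM in Cnot3 +/+ libraries.

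**Figure D5:**
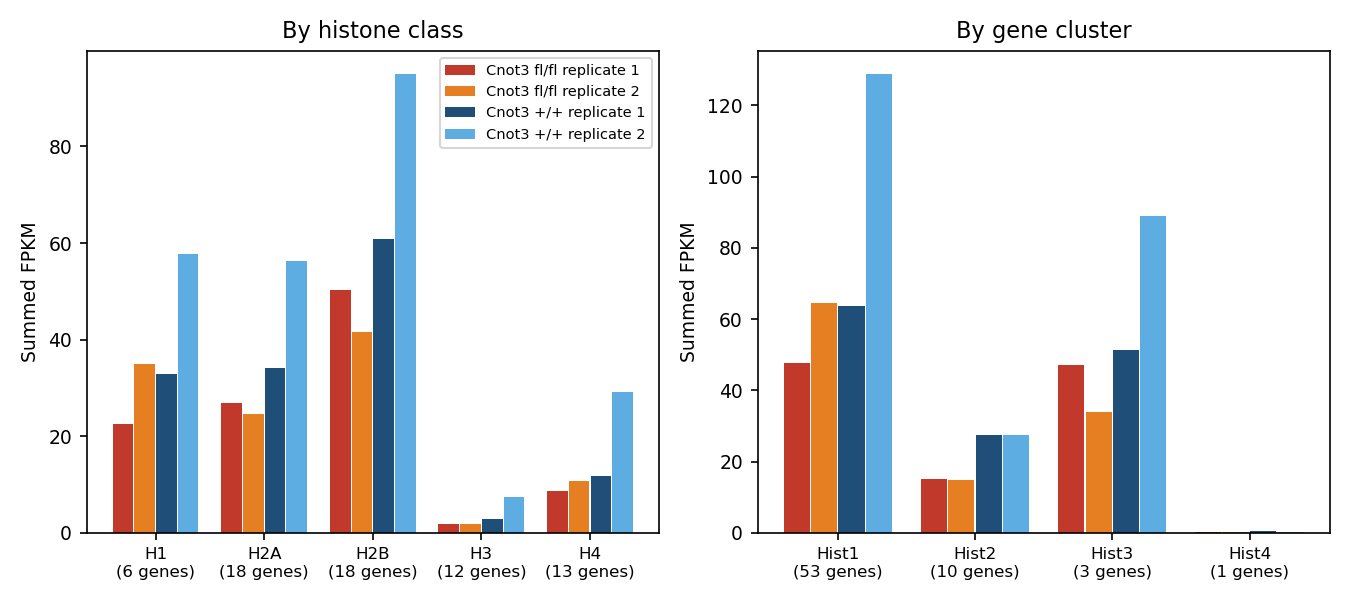
Summed FPKM of the histone genes in each library, by histone class at the left and by gene cluster at the right, with 1 bar per library. Cnot3 +/+ replicate 2 has the tallest bar in every class, whereas the Hist2 cluster has 27.3 and 27.5 FPKM in the Cnot3 +/+ libraries and 15.1 and 14.9 FPKM in the Cnot3 fl/fl libraries.

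Over the whole family the high library was Cnot3 +/+ replicate 2. Of the 57 members with a value above 0, 44 (77.2%) had their highest value there, 8 in Cnot3 +/+ replicate 1, 2 in Cnot3 fl/fl replicate 1 and 3 in Cnot3 fl/fl replicate 2. That library was the highest for 24.6% of the 11017 genes tested, a set that leaves out low genes, and for 13 of the 14 tested members. Of those 14, 6 passed the filter through their Cnot3 +/+ level. With Cnot3 +/+ replicate 1 as the only comparison, both Cnot3 fl/fl libraries were lower in 25 of the 57 members and higher in 7, beside 38.9% lower and 38.4% higher of the 16296 genes above 0 in a library. The median log2 fold change of the tested members was -0.39 without Cnot3 +/+ replicate 2 and -1.01 without Cnot3 +/+ replicate 1. Means were lower in Cnot3 fl/fl libraries in 52 members and higher in 5, Hist1h2ba, Hist1h3e, Hist1h4f, Hist1h4k and Hist2h2aa2, none of which reached 1 FPKM, beside 50.6% lower and 49.4% higher of those 16296 genes.

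Genes of DNA replication and its nucleotide supply were also highest in that library. Of 30 S-phase genes, 24 (80.0%) peaked in Cnot3 +/+ replicate 2 and all 30 were above Cnot3 +/+ replicate 1 there, beside 46.2% of all genes tested. Their summed FPKM was 608.8 and 509.0 in Cnot3 fl/fl libraries and 477.0 and 761.2 in Cnot3 +/+ libraries, so the genotypes overlapped. Only Slc29a1, a nucleoside transporter gene, passed the test, with 22.2 and 21.8 FPKM in Cnot3 fl/fl libraries, against 46.4 and 53.8 FPKM in Cnot3 +/+ libraries (log2 fold change -1.15, adjusted p = 0.024). The other 29 genes missed the threshold, beside 3.28% of all genes tested called lower and 6.22% called higher. The replication clamp gene Pcna had 39.3 and 59.1 FPKM in Cnot3 fl/fl libraries, against 46.2 and 72.4 FPKM in Cnot3 +/+ libraries. The helicase subunit gene Mcm6 measured 82.9 and 53.3 FPKM in Cnot3 fl/fl libraries, against 30.7 and 51.2 FPKM in Cnot3 +/+ libraries. Mcm2 and Mcm3, of the same helicase, had log2 fold changes of -0.20 and 0.23. Enzymes of nucleotide synthesis had negative log2 fold changes that did not pass, -0.91 for Rrm2, -0.62 for Tyms and -0.98 for Dut (adjusted p = 0.16, 0.17 and 0.077). Erythroid markers, a list of 7, summed to 22.0 and 40.2 FPKM in Cnot3 fl/fl libraries and to 28.7 and 63.8 FPKM in Cnot3 +/+ libraries. Of the 7, 3 were tested and 0 passed, none was at 0 in all libraries, and Hbb-b2 and Hba-a2 stayed near 0. The S-phase, erythroid and B-lineage sums, like the histone sum, were highest in Cnot3 +/+ replicate 2. The part of these transcripts in the histone values was not tested. Neutrophil and monocyte markers, 10 genes, summed to 259.3 and 177.4 FPKM in Cnot3 fl/fl libraries, against 177.2 and 234.6 FPKM in Cnot3 +/+ libraries. The 8 T and NK cell markers summed to 991.1 and 861.7 FPKM in Cnot3 fl/fl libraries, against 862.7 and 838.5 FPKM in Cnot3 +/+ libraries. Called higher were 3 of the 10 and 1 of the 8, Cd8a, beside 6.22% of all genes tested. Cd8a had 129.4 and 134.7 FPKM in Cnot3 fl/fl libraries, against 15.7 and 25.7 FPKM in Cnot3 +/+ libraries. The T cell genes Cd3e and Cd3d had 4.67 to 19.3 FPKM, a small part of the T and NK sum.

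Many histone variants, such as H3.3, are made outside S phase too, from polyadenylated mRNAs, whereas H2afx also has a stem-loop mRNA. Of 10 tested variant genes, 2 fell, 0 rose and 8 did not pass, beside 3.28% of all genes called lower, and 9 of the 10 log2 fold changes were negative. Cnot3 +/+ replicate 2 was the highest library for 8 of the 10 and was above Cnot3 +/+ replicate 1 in all 10. The H3.3 gene H3f3a fell to 25.7 ± 4.95 FPKM in Cnot3 fl/fl libraries, against 44.6 ± 3.70 FPKM in Cnot3 +/+ libraries (SD, n = 2 each), with a log2 fold change of -0.78 and a limma adjusted p of 0.048. The linker histone variant gene H1f0 fell to 21.1 ± 2.09 FPKM in Cnot3 fl/fl libraries, against 34.9 ± 2.99 FPKM in Cnot3 +/+ libraries (SD, n = 2 each), with a log2 fold change of -0.70 and a limma adjusted p of 0.041 (0.051 with a replicate block). H3f3b, which encodes the same H3.3 protein, stood at 252.6 and 333.9 FPKM in Cnot3 fl/fl libraries, against 298.3 and 398.4 FPKM in Cnot3 +/+ libraries (adjusted p = 0.45). The DNA damage-linked H2A variant gene H2afx had 43.7 and 45.7 FPKM in Cnot3 fl/fl libraries, against 58.0 and 132.8 FPKM in Cnot3 +/+ libraries (adjusted p = 0.17). H2afv and H2afz, which encode H2A.Z proteins, gave log2 differences of -0.59 and -0.63, short of the threshold (adjusted p = 0.077 and 0.085). The macroH2A gene H2afy, the most abundant variant, measured 476.3 and 467.3 FPKM in Cnot3 fl/fl libraries, against 417.8 and 436.2 FPKM in Cnot3 +/+ libraries (adjusted p = 0.36). For H2afj the log2 fold change was -0.11 (adjusted p = 0.60).

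Of 25 tested factors of histone gene transcription, mRNA 3′ ends or histone mRNA decay, 2 rose, 1 fell and 22 did not pass. Over all genes 6.22% were called higher and 3.28% lower. Lsm10, a U7 snRNP subunit gene, rose to 32.6 ± 3.10 FPKM in Cnot3 fl/fl libraries, against 20.3 ± 0.548 FPKM in Cnot3 +/+ libraries (SD, n = 2 each), with a log2 fold change of 0.66 and a limma adjusted p of 0.040. Cstf1, of the cleavage stimulation factor, rose to 35.3 FPKM in Cnot3 fl/fl libraries on average, against 24.5 FPKM in Cnot3 +/+ libraries (log2 fold change 0.51, adjusted p = 0.040). Ncbp2, of the nuclear cap-binding complex, fell to 19.9 FPKM in Cnot3 fl/fl libraries on average, against 28.7 FPKM in Cnot3 +/+ libraries (log2 fold change -0.51, adjusted p = 0.040). Log2 fold changes were 0.39 for the histone pre-mRNA endonuclease gene Cpsf3 (adjusted p = 0.054) and -0.03 for the scaffold gene Sympk (adjusted p = 0.81). They were -0.30 for Srrt and 0.07 for the uridylyltransferase gene Zcchc6 (adjusted p = 0.077 and 0.57). Slbp, named after its values were seen because its product holds the stem-loop, stood at 36.1 and 32.5 FPKM in Cnot3 fl/fl libraries, against 24.6 and 33.1 FPKM in Cnot3 +/+ libraries (adjusted p = 0.32).

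Of 12 histone chaperone genes, 4 of which are also in the S-phase list, 1 rose, 1 fell and 10 did not pass, beside 6.22% of all genes called higher and 3.28% lower. Daxx, an H3.3 chaperone gene, rose to 65.0 ± 0.880 FPKM in Cnot3 fl/fl libraries, against 40.1 ± 1.18 FPKM in Cnot3 +/+ libraries (SD, n = 2 each), with a log2 fold change of 0.68 and a limma adjusted p of 0.027. Nap1l1, an H2A-H2B chaperone gene, fell to 12.1 ± 1.03 FPKM in Cnot3 fl/fl libraries, against 21.0 ± 2.98 FPKM in Cnot3 +/+ libraries (SD, n = 2 each), with a log2 fold change of -0.74 and a limma adjusted p of 0.043. For its relative Nap1l4 the log2 fold change was -0.28 (adjusted p = 0.12). It was 0.26 for Ssrp1 and 0.05 for Supt16, the FACT subunit genes (adjusted p = 0.20 and 0.71).

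Many histone genes lie as divergent pairs with a shared upstream stretch. The RefSeq starts of Hist2h2be and Hist2h2ac are 191 bases apart on GRCm38 chromosome 3. Those of Hist3h2a and Hist3h2bb-ps are 172 bases apart on chromosome 11. The promoter windows of RefSeq (GRCm38.p6, 250 bases before to 50 after the start) are shown for a member of each pair. They hold all of the stretch between the starts and run past it into the neighbouring gene. Capitals mark the octamer ATTTGCAT, the TATA box TATAAA and the CCAAT box CCAAT, on either strand, and matches of different motifs were allowed to overlap.
Hist2h2ac: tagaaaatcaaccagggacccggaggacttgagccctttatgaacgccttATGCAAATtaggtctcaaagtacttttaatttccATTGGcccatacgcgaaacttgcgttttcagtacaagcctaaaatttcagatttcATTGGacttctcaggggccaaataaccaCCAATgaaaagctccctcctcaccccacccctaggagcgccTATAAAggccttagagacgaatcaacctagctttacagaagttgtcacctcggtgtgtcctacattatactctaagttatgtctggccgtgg
Hist3h2a: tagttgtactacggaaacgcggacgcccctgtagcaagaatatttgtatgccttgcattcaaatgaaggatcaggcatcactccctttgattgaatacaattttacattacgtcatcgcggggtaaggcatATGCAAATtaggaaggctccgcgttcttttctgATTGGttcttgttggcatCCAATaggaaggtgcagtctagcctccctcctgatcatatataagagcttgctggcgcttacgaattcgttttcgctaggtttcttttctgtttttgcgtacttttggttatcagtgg
The first window is chr3:96220831-96221130 on the minus strand and the second chr11:58954435-58954734 on the plus strand. Hist2h2ac had 1 octamer, 1 TATA box and 3 CCAAT boxes, and Hist3h2a 1 octamer, 0 TATA boxes with these letters and 2 CCAAT boxes. The octamer of the Hist2h2ac window begins at its base 51, past the Hist2h2be start at chr3:96221072, so it lies within Hist2h2be and not between the starts. Of 60 members with a window, 51 (85.0%) held the CCAAT box and 35 (58.3%) the TATA box, against 37.9% and 14.2% of the 27025 windows searched. The octamer stood in 7 of 17 H2A and 6 of 15 H2B windows and in 0 of 28 others, against 1.75% of all windows. The CCAAT box was in every H1, H2A, H2B and H3 window and in 3 of 12 H4 windows. A match describes these letters and does not show a bound site.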

How the data were processed

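RNA was measured in 2 Cnot3 fl/fl and 2 Cnot3 +/+ libraries, grouped by their labels. Per the labels' protocols, total RNA went into a stranded mRNA kit. Tools in the submitters' processing notes are Cuffnorm 2.2.1, Cufflinks 2.2.1, Bowtie2 2.2.3.0, TopHat2 2.0.13 and bcl2fastq 1.8.4, and the build is mm9. Roles, gene annotation and the treatment of multi-mapped reads were not stated there. Per the file headers, the authors' files hold FPKM per gene for each library. Their comparison table, also per the file headers, adds for every gene an FPKM value for either genotype, the p-value and the q-value.

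Values were transformed to log2(FPKM + 1). The test was limma's (version 3.58.1, R 4.3.3), fitted on genotype alone, two-sided, and moderated by eBayes with a mean-variance trend. It covered the 11017 genes averaging 1 FPKM or more, with Benjamini-Hochberg adjustment over all of them. A gene was called when this adjusted p was under 0.05. Residual degrees of freedom were 2 and prior ones 2.69, and the fit was tested on simulated data. Fold changes on this scale understate those of low genes. Histone genes were named if they reached 1 FPKM. The level of 5 FPKM that sets off the abundant members, and other members named singly, were chosen after their values were seen. From other lists, the 4 most abundant, the 4 with the smallest p and those past the threshold were named. For marker lists, sums are given, and Cd8a, Cd3e and Cd3d were named after their values were seen. Members and lists were chosen with earlier results of these data known. Sequences came from GENCODE M21 and from RefSeq's GRCm38.p6 promoter table, and coordinates of that build were not joined to the files' mm9 ones. Alternatives are given with the limits. A count test was not run, because whole reads could not be recovered for genes of different length.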

Additional observations from a re-analysis of the deposited data

How the results depend on the processing

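Absolute depth was unknown. If the smallest step is 1 fragment, values under 1 FPKM in the 312-base H4 genes rested on few fragments. The count of histone genes called lower, 1 in the fit given above, was 0 with a pseudocount of 5 FPKM, with no filter on low values, without the variance trend and without each library in turn, so the leave-one-out range was 0 to 0. With a replicate block it was 2, Hist1h1c and Hist1h4d (adjusted p = 0.046 and 0.047), and Hist2h2be had 0.054. The replicate numbers did not pair the libraries: with 2 pairs their deviations correlated at 0.14 across genes, and nothing in the labels ties equal numbers together. Under the block 456 genes were higher over the whole table and histone variants called lower numbered 1, without H1f0 (adjusted p = 0.051). No histone gene was called higher under any alternative.

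Over all genes, 685 were higher and 361 lower, with 4 and 1 without the filter, 242 and 69 without the trend, and 2 to 18 and 0 to 13 with a library left out. Without the filter, and with any library left out, the calls among histone variants, 3′ end factors, S-phase genes and chaperones were 0. Without the trend they were 0 too, except Slc29a1 and Daxx, which still passed. The members reaching a level numbered 44 at 0.5 FPKM and 15 at 2 FPKM, and 15 to 27 with a library left out. The median log2 fold change of the tested histone genes was -1.01 to -0.39 with a library left out and -0.79 to -0.30 under the other alternatives.

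Signs reversed only for values that had not passed. With a library left out, the log2 fold change was -0.89 to 0.53 for Hist1h2bc, -1.08 to 0.47 for Hist1h4i and -0.69 to 0.042 for Hist3h2bb-ps, each highest without Cnot3 +/+ replicate 2. It was -0.58 to 0.058 for Pcna and -0.46 to 0.056 for Mcm2, also highest without that library. It was -0.28 to 0.058 for H2afj, -0.079 to 0.016 for Sympk, -0.059 to 0.52 for Mcm3 and -0.026 to 0.13 for Supt16. Beyond the fewer samples or genes in these fits, the cause was not tested.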
